A study of Rattus norvegicus with 18 samples.

Results

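The miR-322, miR-503, miR-351, miR-542 and miR-450a hairpins form a cluster on the rat X chromosome. Both arms of each of these 5 hairpins are listed among the 599 mature miRNAs measured in rat heart, which gives 10 cluster miRNAs: rno-miR-322-5p, rno-miR-322-3p, rno-miR-503-5p, rno-miR-503-3p, rno-miR-351-5p, rno-miR-351-3p, rno-miR-542-5p, rno-miR-542-3p, rno-miR-450a-5p and rno-miR-450a-3p. They were taken by name, and the cluster was selected on values of these same libraries, the difference between hypertensive and control hearts. That difference is given below as a description with no p-value, and how many members the fit over all miRNAs called in it is printed with nothing read from it. Small RNA was sequenced in 18 heart libraries, 6 from each of 3 groups. WKY is the Wistar Kyoto strain, labelled normal. SHR is the spontaneously hypertensive strain, labelled hypertension, and QDG is the SHR strain given a treatment named QDG. The design text speaks of NS or QDG treatment and of 6 animals a group. NS and QDG are not spelled out, with dose, duration, age and sex also not given in the sources used here. Beyond that text nothing says that each library came from another animal, and the p-values may in part measure technical spread.

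A miRNA hairpin is cut from a longer transcript and then trimmed to a short duplex whose strands come from its 5p and 3p arms, and usually one strand is kept in the silencing complex. Bases 2 to 8 of the mature strand, the seed, do most of the pairing with target mRNAs, so that miRNAs with the same seed share many predicted targets. miR-322, known in humans as miR-424, and miR-503 are best known for repressing cell cycle genes such as cyclin D1 and Cdc25a and for promoting exit from the cell cycle during muscle differentiation. Their relatives miR-195 and miR-16 are known for restraining division of heart muscle cells after birth. miR-351 is a rodent miRNA with the seed of miR-125, the relative of worm lin-4, and miR-542-3p is known for repressing survivin.

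The mature sequences sort the cluster into seed families, and they are shown because the levels below are read within those families. Sequences are from RefSeq (assembly GRCr8), 5′ to 3′, with the seed in capitals. The first set holds miR-322-5p and miR-503-5p with the relatives encoded elsewhere.
rno-miR-322-5p: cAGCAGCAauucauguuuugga
rno-miR-503-5p: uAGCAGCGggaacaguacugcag
rno-miR-16-5p: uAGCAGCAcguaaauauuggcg
rno-miR-195-5p: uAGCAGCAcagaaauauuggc
rno-miR-497-5p: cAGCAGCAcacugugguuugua
rno-miR-15b-5p: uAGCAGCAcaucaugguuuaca
miR-322-5p has the full seed of miR-15b, miR-16, miR-195 and miR-497, whereas miR-503-5p shares only bases 2 to 7 with them. The second set holds miR-351-5p with the miR-125 miRNAs.
rno-miR-351-5p: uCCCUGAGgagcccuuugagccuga
rno-miR-125a-5p: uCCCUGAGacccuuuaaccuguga
rno-miR-125b-5p: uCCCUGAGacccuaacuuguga
The third set holds miR-450a-5p with its neighbour miR-450b-5p, whose hairpin also lies in the cluster.
rno-miR-450a-5p: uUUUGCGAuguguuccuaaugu
rno-miR-450b-5p: uUUUGCGAuguguuccuaaua
These 2 miRNAs, of 22 and 21 bases, are identical over their first 20 bases. The last set holds the 3 most abundant remaining strands, whose seeds no other matched miRNA of the files shares.
rno-miR-322-3p: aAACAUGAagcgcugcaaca
rno-miR-503-3p: gGAGUAUUguuuccgcugccugg
rno-miR-542-3p: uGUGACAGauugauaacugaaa

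The cluster lies on the minus strand of chromosome X in GRCr8, between Hprt1 on the miR-450a side and Plac1 on the miR-322 side, with the authors' own build not given in the sources used here. In the order of transcription the hairpins are Mir322 (chrX:137726147-137726241), Mir503 (chrX:137725856-137725926), Mir351 (chrX:137725116-137725196), Mir542 (chrX:137722176-137722254), Mir450b-1 (chrX:137721078-137721146) and Mir450a1 (chrX:137720933-137721023). All 6 lie within 5309 bases. miR-322 and miR-503 are 220 bases apart and miR-351 follows after 659 bases, but 2861 bases separate miR-351 from miR-542. The annotated long noncoding RNA LOC102550366 contains 3 of the hairpins, those of miR-322, miR-503 and miR-351.

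Levels are given in RPM, the authors' normalized read counts, which are reads per 1000000 of a divisor particular to each library. Libraries held 6420666 to 10169581 reads over miRNAs, and 1 read was worth 0.135 to 0.225 RPM. No libraries of one group agreed within counting noise. In an earlier account of these data WKY replicate 1 and SHR replicate 5 stood apart from the other libraries of their groups, and results that change without them are given both ways. Of the cell type markers, the 5 heart muscle miRNAs summed to 487141 to 620053 RPM in every library, and no marker of any list was at 0 in all libraries. Within the heart muscle list miR-1-3p was higher in SHR and QDG than in WKY (log2 differences 0.74 and 0.70). Its limma adjusted p was 3.34e-08 and 9.46e-08. The other heart muscle markers had negative log2 differences in both comparisons and did not pass. In SHR and QDG these were -0.12 and -0.14 for miR-1b and -0.01 and -0.07 for miR-133a-3p. They were -0.16 and -0.03 for miR-208a-3p and -0.19 and -0.13 for miR-499-5p. The 4 fibroblast and stromal markers summed to 27462 to 32170 RPM in WKY, 30529 to 52244 in SHR and 34754 to 39095 in QDG. Within that list miR-21-5p, a miRNA raised in activated fibroblasts, was higher in SHR and in QDG than in WKY (log2 differences 0.42 and 0.43, limma adjusted p = 0.00513 and 0.00436), and 0 of the other 3 markers passed. Of 5 leukocyte markers, miR-155-5p was higher in SHR and QDG than in WKY (log2 differences 0.48 and 0.41, limma adjusted p = 0.0128 and 0.0422). miR-142-3p was higher in QDG (0.38, limma adjusted p = 0.0422) and did not pass in SHR (0.20). Against WKY, miR-150-5p (-0.24 in SHR and -0.27 in QDG), miR-142-5p (-0.13 and 0.01) and miR-223-3p (0.22 and 0.09) did not pass. The leukocyte list summed to 1094 to 1563 RPM in WKY (median 1473), 1223 to 1407 in SHR (median 1305) and 1184 to 1433 in QDG (median 1355). The part of these cell types in the cluster's levels was not tested. In bulk tissue, fewer cells of a type and less of a miRNA per cell cannot be told apart.

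The cluster was a small part of heart miRNA and was lower in both groups of the SHR strain than in WKY. Its 10 miRNAs together took 0.207 ± 0.00763% of miRNA reads in WKY, 0.170 ± 0.0106% in SHR and 0.167 ± 0.0125% with QDG (SD, n = 6 each). In RPM the sum ran from 2791 to 3208 in WKY, from 2208 to 2679 in SHR and from 1999 to 2597 in QDG. No SHR or QDG library reached the lowest WKY library, and the SHR and QDG ranges overlapped over most of their width. The lower sum repeats the difference between SHR and WKY on which the cluster was chosen, and QDG was set against the same WKY libraries. How often sums of other clusters separate was not counted, and nothing is read from this separation. rno-miR-450a-5p was the main strand in each group, with 52.5 ± 2.83% of the cluster's reads in WKY, 52.6 ± 4.30% in SHR and 54.4 ± 2.47% with QDG.

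Levels within the cluster spanned more than 3 orders of magnitude. In WKY the order was rno-miR-450a-5p (1568 ± 100.3 RPM, mean ± SD, n = 6), rno-miR-322-3p (404 ± 37.3), rno-miR-351-5p (377 ± 54.5), rno-miR-322-5p (315 ± 35.4), rno-miR-542-3p (165 ± 18.5), rno-miR-503-5p (77.2 ± 12.6) and rno-miR-503-3p (61.2 ± 9.75). rno-miR-450a-3p (13.0 ± 1.90 RPM), rno-miR-542-5p (3.56 ± 1.00) and rno-miR-351-3p (0.667 ± 0.165) were the scarce strands. The ranges of neighbours in this order overlapped for miR-322-3p with miR-351-5p, miR-351-5p with miR-322-5p, and miR-503-5p with miR-503-3p. In SHR and QDG the same order held but for 1 exchange. There miR-322-5p (279 ± 16.9 and 260 ± 45.1 RPM) stood above miR-351-5p (243 ± 25.3 and 243 ± 25.9 RPM), in 6 of 6 SHR libraries and in 4 of 6 QDG libraries, although miR-351-5p was the higher of the 2 in 6 of 6 WKY libraries. Across miRNAs such an order also reflects how well each sequence is captured during library preparation.

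**Figure D1:**
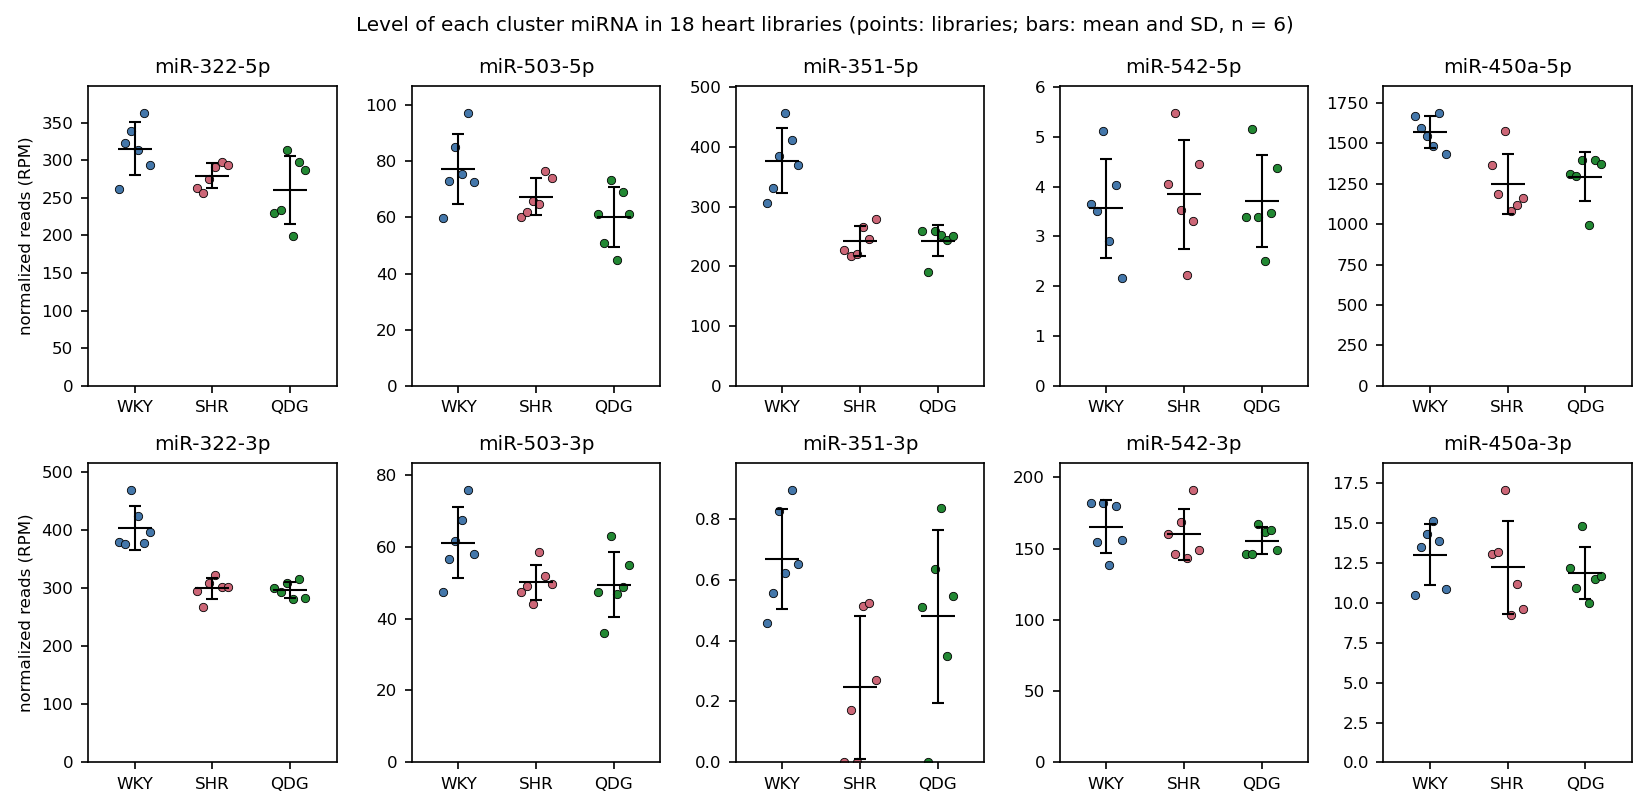
Level of the 10 cluster miRNAs in each library, in normalized reads (RPM) on linear axes from 0, with 5p arms above and 3p arms below; points are libraries of WKY, SHR and QDG and bars are the mean and SD (n = 6). For miR-351-5p and miR-322-3p every WKY point lies above all SHR and QDG points, while the miR-542 points of the 3 groups intermix.

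miR-351-5p showed the widest gap between WKY and the SHR strain. Its level ran from 306 to 456 RPM in WKY (median 377), from 218 to 279 RPM in SHR (median 237) and from 192 to 259 RPM in QDG (median 252). All SHR and QDG libraries were below the lowest WKY library, which was replicate 1. The mean was 1.55-fold lower in SHR than in WKY, a log2 difference of -0.62 ± 0.11 (SE). rno-miR-351-3p, the other strand of the hairpin, was close to the detection limit with 0 to 5 reads a library. It had 3 to 5 reads in each WKY library, 0 to 3 in SHR with 0 in 2 libraries, and 0 to 5 in QDG with 0 in 1 library. A library at 0 still allows up to 3 reads, so no order of the groups can be read from this strand. It was the 1 member that did not pass the filter of at least 1 RPM in at least 6 libraries.

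The 3p strand of miR-322 was also separated between the strains, but the 5p strand was not. miR-322-3p ran from 376 to 470 RPM in WKY (median 388), from 268 to 324 in SHR (median 302) and from 282 to 316 in QDG (median 297). The SHR and QDG values lie within the same narrow band, below all WKY libraries. The mean was 1.35-fold lower in SHR than in WKY (log2 difference -0.43 ± 0.08). miR-322-5p, the strand with the miR-16 seed, ran from 261 to 362 RPM in WKY (median 318), from 257 to 297 in SHR (median 283) and from 200 to 313 in QDG (median 260). Here the groups overlapped, and the QDG libraries were spread over the widest range. The SHR mean was 1.13-fold lower than the WKY mean (log2 difference -0.17 ± 0.11).

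miR-503 had lower means in the SHR strain, with overlap between groups. miR-503-5p ran from 59.9 to 97.1 RPM in WKY (median 74.3), from 60.2 to 76.7 in SHR (median 65.4) and from 44.7 to 73.3 in QDG (median 61.2). miR-503-3p ran from 47.4 to 75.8 RPM in WKY (median 59.8), from 44.0 to 58.4 in SHR (median 49.3) and from 36.1 to 63.0 in QDG (median 48.0). For both strands the lowest WKY library, replicate 1, was no higher than most SHR libraries, and the highest WKY library, replicate 5, lay above all SHR and QDG libraries. The log2 differences between SHR and WKY were -0.19 ± 0.12 for the 5p strand and -0.27 ± 0.12 for the 3p strand.

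At the far end of the cluster, miR-450a-5p ran from 1432 to 1685 RPM in WKY (median 1568), from 1082 to 1575 in SHR (median 1176) and from 997 to 1395 in QDG (median 1340). In SHR 5 of 6 libraries were below the lowest WKY library, and SHR replicate 3, at 1575 RPM, was above the WKY mean. The log2 difference between SHR and WKY was -0.34 ± 0.10. Reads of miR-450a-5p and miR-450b-5p may have been shared, since the 2 strands differ only in their last bases, with the authors' handling of reads that fit both not given in the sources used here. Their ratio lay between 1.28 and 1.43 in all 18 libraries. miR-450b-5p had 1158 ± 78.1 RPM in WKY, 929 ± 146 in SHR and 967 ± 104.6 with QDG (SD, n = 6 each), with a log2 difference of -0.33 ± 0.10 between SHR and WKY, also given without a test. Between QDG and WKY it had -0.26 ± 0.10 and did not pass (limma adjusted p = 0.0696). miR-450a-3p, whose sequence is distinct, ran from 10.5 to 15.1 RPM in WKY, from 9.25 to 17.1 in SHR and from 10.02 to 14.8 in QDG, with SHR replicate 3 again the highest of its group.

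miR-542, whose hairpin lies between those of miR-351 and miR-450b, had overlapping levels in the 3 groups. miR-542-3p ran from 138 to 182 RPM in WKY (median 168), from 143 to 191 in SHR (median 155) and from 146 to 167 in QDG (median 155). The 3 ranges lie almost on top of one another. The log2 difference between SHR and WKY was -0.05 ± 0.10, and its 95% interval was -0.25 to 0.15. Its share of the cluster's reads was 6.78% in SHR (6.31 to 8.32%) and 5.54% in WKY (4.64 to 6.23%), with no overlap, and 6.60% in QDG (6.02 to 8.09%). The cluster was chosen on this comparison and its sum was lower in SHR, so a strand at a like level takes a larger share. Nothing is read from that separation. miR-542-5p had 2.17 to 5.11 RPM in WKY, 2.23 to 5.47 in SHR and 2.504 to 5.16 in QDG, from 10 to 33 reads a library. Its spread within a group was 24.8 to 28.6% of the mean, where counting alone gives 21.2 to 22.7%.

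Across the cluster, 8 of the 9 members that passed the filter had a lower mean in SHR than in WKY, the exception being miR-542-5p. The median log2 difference of the 9 was -0.19, beside -0.07 for all 410 miRNAs tested. The limma fit called 3 of the 9 lower in SHR (miR-351-5p, miR-322-3p and miR-450a-5p), where it called 15.1% of all tested miRNAs lower. Without overlap between the libraries of the 2 groups were miR-351-5p and miR-322-3p, 2 of 9, where 6.83% of all tested miRNAs were lower without overlap. Nothing is read from these counts, because the cluster was chosen with this comparison known. Without WKY replicate 1 and SHR replicate 5 the log2 differences were -0.69 for miR-351-5p, -0.45 for miR-322-3p, -0.29 for miR-450a-5p and -0.35 for miR-503-3p, which was then also called. The value of miR-450a-5p depended on the scaling and was -0.24 under upper quartile scaling, -0.26 under RLE scaling and -0.26 in DESeq2, and under these 3 it was not called. The sign of the miR-542 strands was not fixed. miR-542-3p had 0.002588 under TMM scaling, 0.02902 under RLE, 0.05249 under upper quartile, 0.002943 when library sizes left out the top 10 miRNAs and 0.01661 in DESeq2, and miR-542-5p had -0.01641 without WKY replicate 6 and -0.007289 without SHR replicate 2. The split of all calls also moved with the scaling, from 34.7% higher calls with the authors' values to 43.5% with TMM, 49.5% with RLE and 56.3% with upper quartile factors.

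QDG against SHR asks whether the treatment moved the cluster within the hypertensive strain. No cluster miRNA passed the test. The QDG means were 1.00 times the SHR mean for miR-351-5p, 0.991 times for miR-322-3p and 1.04 times for miR-450a-5p. The log2 difference of miR-351-5p was 0.00 with a 95% interval of -0.22 to 0.22. For miR-322-3p it was -0.01 (-0.18 to 0.16) and for miR-450a-5p 0.05 (-0.15 to 0.26). The upper bound of each interval was below the size of the log2 difference between SHR and WKY for the same strand, given above. For miR-450a-3p, miR-542-3p and miR-542-5p it was not. The cluster was chosen on the differences between SHR and WKY, which may be too large for that reason, so nothing is read from this. The lowest log2 difference between QDG and SHR was that of miR-503-5p, -0.18 (-0.43 to 0.08), followed by miR-322-5p with -0.12 (-0.34 to 0.10). These 2 strands, which share bases 2 to 7, were below the lowest SHR library in 2 and 3 of the 6 QDG libraries. Limma adjusted p lay between 0.983 and 1 for the 9 tested members. In this comparison 0% of the 410 miRNAs were called and 0% had no overlap between the groups. At an unadjusted p under 0.05 there were 15 of 410 and 0 of the 9 members, and edgeR, DESeq2 and limma-voom also called 0. The comparison shares the SHR libraries with the one that led to the choice of the cluster.

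QDG against WKY sets the treated hypertensive hearts against the control strain and shares its WKY libraries with SHR against WKY, so the 2 sets of values are not independent. The cluster was chosen where those WKY libraries were high, and the p-values of this comparison may be too small for that reason. miR-351-5p was 1.55-fold lower in QDG than in WKY, with a log2 difference of -0.62 ± 0.11 (SE, limma adjusted p = 7.36e-05). miR-322-3p was 1.36-fold lower, with -0.44 ± 0.08 (limma adjusted p = 0.00035). For both, 6 of 6 QDG libraries lay below the lowest WKY library. The test also called miR-503-5p, 1.29-fold lower (-0.36 ± 0.12, limma adjusted p = 0.0419), and miR-450a-5p, 1.21-fold lower (-0.28 ± 0.10, limma adjusted p = 0.0458). All 6 QDG libraries were below the WKY mean for each of them, and for miR-450a-5p also below the lowest WKY library. In all, 4 of the 9 tested members were lower, where 10.5% of all tested miRNAs were called lower. For 3 of 9 the groups did not overlap, where 4.15% of all tested miRNAs were lower without overlap. The median log2 difference was -0.29 for the 9 members and -0.06 for all 410 miRNAs. The remaining members did not pass. miR-503-3p had -0.31 ± 0.12 (limma adjusted p = 0.0925), miR-322-5p -0.29 ± 0.11 (0.0613), miR-450a-3p -0.12 ± 0.14 (0.612), miR-542-3p -0.08 ± 0.10 (0.612) and miR-542-5p 0.05 ± 0.18 (0.865).

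**Figure D2:**
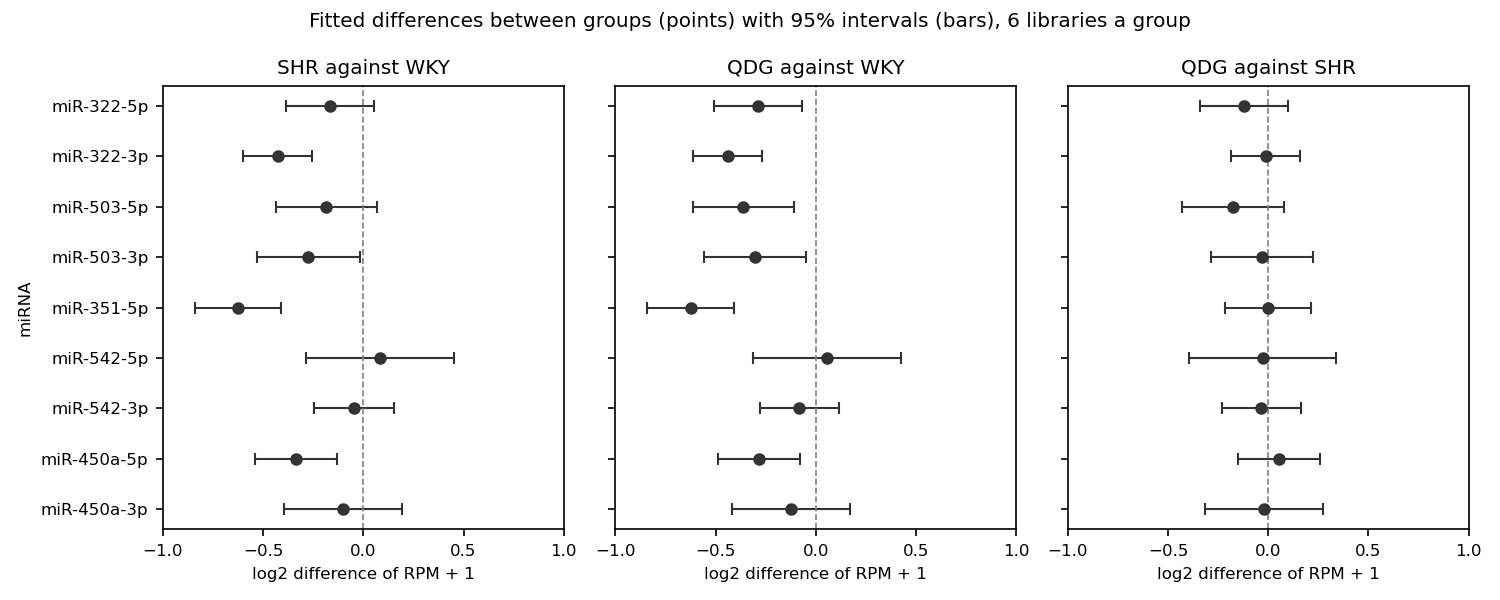
Fitted log2 difference of RPM + 1 for the 9 tested cluster miRNAs in the 3 comparisons (points) with 95% intervals (bars), 6 libraries a group; the dashed line marks 0. miR-351-5p lies near -0.62 in both comparisons with WKY and at 0.00 between QDG and SHR, and the intervals of all 9 members include 0 in the last panel.

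The calls of miR-503-5p and miR-450a-5p in QDG against WKY were lost when single libraries were left out and under several other settings. Of 32 alternatives, 20 kept the call of miR-503-5p and 12 that of miR-450a-5p. For miR-450a-5p the limma adjusted p was 0.0695, 0.077, 0.066, 0.054 and 0.098 without WKY replicates 1 to 5 in turn, 0.0522, 0.0557 and 0.0509 without SHR replicates 1, 2 and 6, and 0.0665, 0.0625, 0.128 and 0.0501 without QDG replicates 1, 2, 4 and 6. For this strand the adjusted p was also above 0.05 in edgeR (0.0717), DESeq2 (0.0802) and limma-voom (0.0707). The same held for limma with no filter (0.0635) and under TMM (0.0715), RLE (0.0842) and upper quartile scaling (0.239, log2 difference -0.18). Without both WKY replicate 1 and SHR replicate 5 the limma adjusted p was 0.0673. For miR-503-5p the limma adjusted p was 0.0521, 0.0815, 0.0582, 0.114 and 0.0533 without WKY replicates 2 to 6 and 0.0555, 0.0867, 0.122 and 0.0538 without QDG replicates 1, 2, 4 and 6. It was also above 0.05 with no filter (0.0608), under upper quartile scaling (0.0748) and in a fit of only the 2 groups compared (0.072). miR-322-5p, not called in the main test, passed without WKY replicate 1 (limma adjusted p = 0.0206), QDG replicate 3 (0.0259) or QDG replicate 5 (0.0413), and also in edgeR (0.0361) and DESeq2 (0.0266). miR-503-3p passed without WKY replicate 1 (limma adjusted p = 0.0283) or QDG replicate 3 (0.0341). Without both WKY replicate 1 and SHR replicate 5, miR-322-5p and miR-503-3p also passed (limma adjusted p = 0.0218 and 0.0295).

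The use of the 2 arms differed by hairpin. Almost all reads of miR-351 and miR-450a came from the 5p arm (means of 99.8 to 99.9% and 99.0 to 99.2% over the groups), whereas miR-542 gave 2.09 ± 0.442% of its reads from the 5p arm in WKY, 2.38 ± 0.783% in SHR and 2.36 ± 0.671% with QDG (SD, n = 6 each). miR-503 and miR-322 kept both arms at like levels. The 5p arm took 55.8 ± 1.68% of miR-503 reads in WKY, 57.3 ± 3.01% in SHR and 54.8 ± 3.76% with QDG. Of miR-322 reads it took 43.8 ± 3.14% in WKY, 48.2 ± 1.14% in SHR and 46.4 ± 3.83% with QDG. For miR-322 the WKY libraries ran from 40.7 to 49.0%, the SHR libraries from 47.1 to 49.6% and the QDG libraries from 41.4 to 50.3%. The groups overlap, and these shares, which do not depend on the scaling between libraries, are given without a test.

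**Figure D3:**
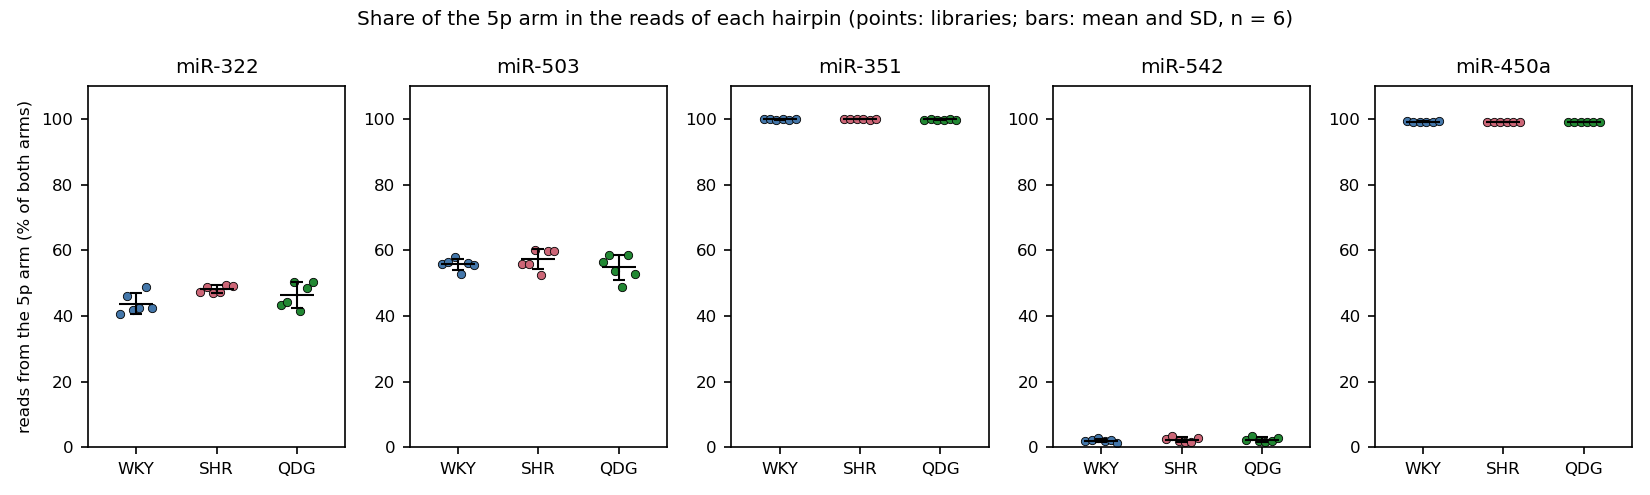
Percentage of the reads of each hairpin that came from its 5p arm, per library (points) with mean and SD (bars, n = 6), on axes from 0. miR-351 and miR-450a lie near 100%, miR-542 near 2%, and miR-322 and miR-503 in the middle of the axis in every library.

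Within its seed family miR-322-5p was a minor strand, and the family sum was similar in the 3 groups. The 5 miRNAs with the seed AGCAGCA (miR-15b-5p, miR-16-5p, miR-195-5p, miR-497-5p and miR-322-5p) summed to 2188 ± 309 RPM in WKY, 2231 ± 93.4 in SHR and 2190 ± 261 with QDG (SD, n = 6 each). miR-16-5p led the family with 1032 ± 164, 1094 ± 16.7 and 1062 ± 118 RPM. miR-322-5p took 14.5% of the family in WKY (13.2 to 16.1%), 12.5% in SHR (11.8 to 13.4%) and 11.8% in QDG (10.98 to 13.0%). Every QDG library was thus below every WKY library in this share, with no overlap, and the SHR libraries overlapped both. The level of miR-322-5p itself overlapped between QDG and WKY. How often shares in other families separate was not counted, and the cluster was chosen where the WKY libraries were high. Nothing is read from this separation. Of the 5 relatives outside the cluster, miR-15a-5p included, limma called 0 in each of the 3 comparisons, and their median log2 differences were 0.03 for SHR against WKY, -0.03 for QDG against SHR and 0.05 for QDG against WKY. miR-15a-5p is named for its family and was not matched to a sequence.

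miR-351-5p was a still smaller part of its family, since miR-125a-5p (6310 ± 782 RPM in WKY) and miR-125b-5p (12857 ± 1581 RPM) are abundant in heart. Its share was 1.93% in WKY (1.58 to 2.34%), 1.31% in SHR (1.13 to 1.52%) and 1.40% in QDG (0.987 to 1.58%). The SHR range lay wholly below the WKY range, while the highest QDG library just exceeded the lowest WKY library. The gap between SHR and WKY repeats the difference on which the cluster was chosen, and nothing is read from it. Limma called 0 of the 2 miR-125 miRNAs in each comparison. The log2 differences of miR-125a-5p were -0.10 for SHR against WKY and -0.19 for QDG against WKY, and those of miR-125b-5p were -0.03 and -0.13. In the third family, miR-450a-5p held 57.5% of the reads in WKY, 57.4% in SHR and 57.2% with QDG, the near-constant ratio already given.

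Some members varied together from library to library more than others. Over the 8 members of at least 10 RPM, Pearson's r of log2(RPM + 1) across the 18 libraries was above 0 for 28 of 28 pairs (median 0.50), which includes the difference between groups. After removal of the group means it was above 0 for 25 of 28 pairs, with a median of 0.28 and a range of -0.31 to 0.90. The highest value was that of miR-322-5p with miR-503-5p (0.94 across libraries and 0.90 after removal), neighbours in the genome that share bases 2 to 7 of the seed. miR-322-3p with miR-351-5p, the 2 strands without overlap between strains, came next across libraries with 0.88 but had 0.41 after removal. miR-503-3p with miR-351-5p had 0.81 and 0.79. The miR-450 strands formed a group of their own. miR-450a-3p with miR-450a-5p had 0.65 after removal and with miR-450b-3p 0.67, whereas miR-351-5p with miR-450a-5p had -0.31. With the other strands shown, their r after removal ran from -0.46 (miR-351-5p with miR-450b-5p) to 0.49 (miR-503-5p with miR-450b-3p). miR-450b-3p was added after its values were seen, as the other arm of the neighbouring hairpin. The libraries share depth and scaling, so these r are descriptions over 18 points.

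**Figure D4:**
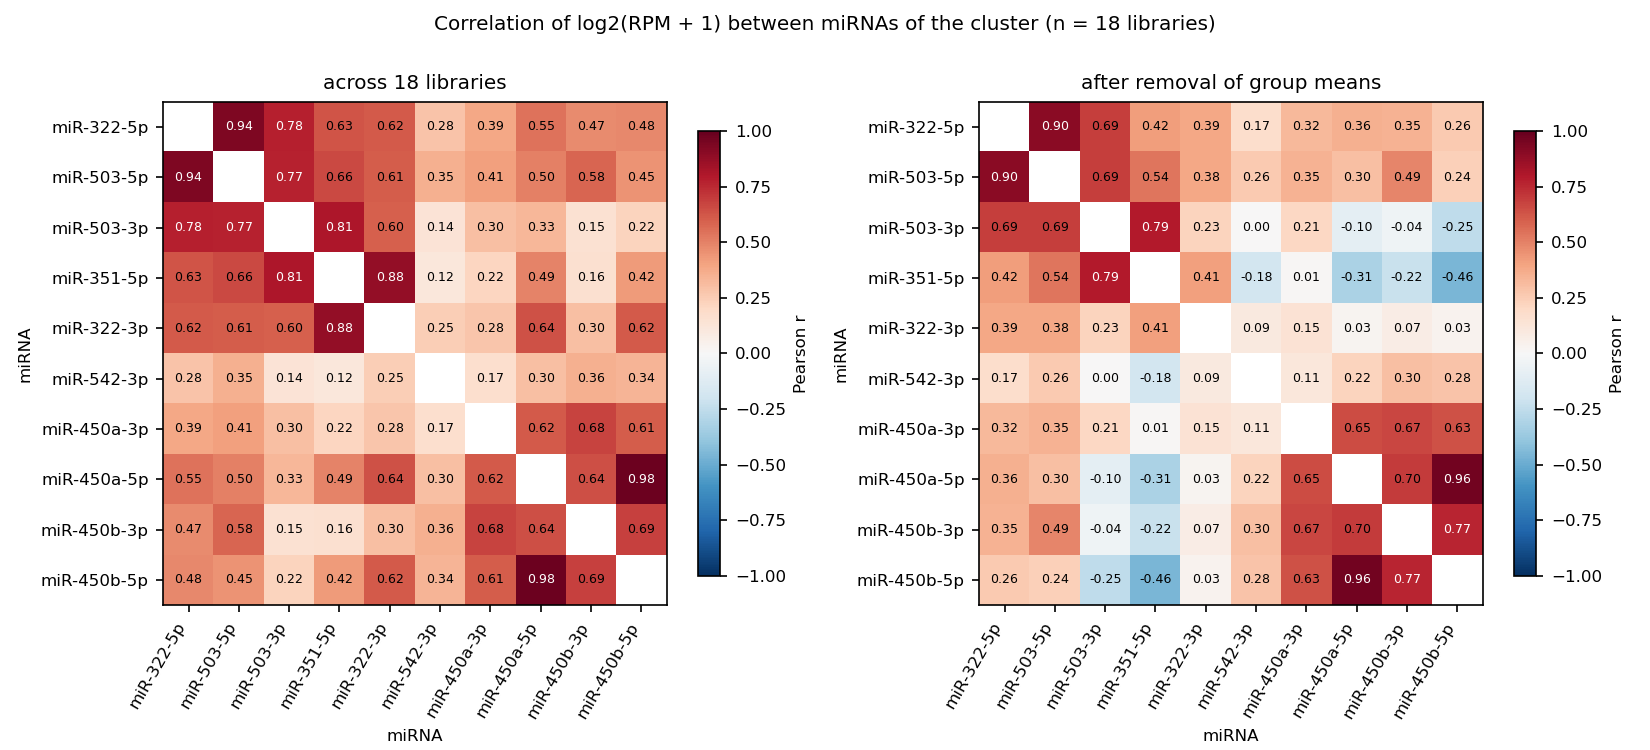
Pearson's r between cluster miRNAs, with the miR-450b strands added, over 18 libraries, before (left) and after (right) removal of group means; the colour scale runs from -1 to 1. After removal miR-322-5p, miR-503-5p and miR-503-3p stay above 0.68 with one another and the miR-450 strands form a second block. miR-351-5p has -0.31 with miR-450a-5p and -0.46 with miR-450b-5p.

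Low libraries recurred in particular replicates. WKY replicate 1 was the lowest WKY library for miR-322-5p, miR-503-5p, miR-503-3p and miR-351-5p, yet had the second highest miR-450a-5p at 1668 RPM. QDG replicate 4 was the lowest of its group for miR-322-5p (200 RPM), miR-503-5p (44.7 RPM) and miR-450a-5p (997 RPM), and QDG replicate 2 for miR-351-5p (192 RPM) and miR-503-3p (36.1 RPM). QDG replicate 3 was at the top of its group for miR-322-5p (313 RPM), miR-503-5p (73.3 RPM) and miR-503-3p (63.0 RPM).

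To set the cluster beside other miRNAs, a cluster profile was formed as the mean of the standardised log2(RPM + 1) of the 8 members of at least 10 RPM, and 241 other miRNAs of at least 10 RPM were ranked by their r with it over the 18 libraries. The most similar were miR-210-3p, which rises in hypoxia (r = 0.87), miR-30b-5p (0.85), let-7a-5p (0.81), miR-29b-3p, a repressor of collagen genes (0.80), and miR-3585-5p (0.80). All 5 had higher means in WKY than in SHR and QDG. The profile holds the difference between groups on which the cluster was chosen, so miRNAs lower in the SHR strain tend to rank high in this list. miR-210-3p, for instance, had 394, 271 and 268 RPM in WKY, SHR and QDG. After removal of the group means the highest were miR-350 (0.82), miR-23a-3p (0.77), miR-30b-5p (0.71), miR-98-5p (0.71) and miR-497-5p (0.71). miR-30b-5p was on both lists, and miR-497-5p carries the seed of miR-322-5p.

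Other miRNAs of the X chromosome were counted beside the cluster. Of 73 listed miRNAs placed on X by RefSeq, the members and both miR-450b strands left out, 50 passed the filter. Their median log2 difference was -0.01 for SHR against WKY and -0.08 for QDG against WKY, beside -0.19 and -0.29 for the cluster. The cluster was chosen on SHR against WKY, and QDG against WKY shares the WKY libraries. The cluster medians may lie lower for that reason, so nothing is read from their distance to the rest of X. In SHR against WKY 7 of 50 were called lower (14%, beside 15.1% of all tested miRNAs) and 1 higher, and with the miR-450b strands 8 of 52 were lower (15.4%). In QDG against SHR 0 were called, and in QDG against WKY 5 were lower (10%, beside 10.5%). Both shares were close to those of all tested miRNAs. Among those called, the largest differences were those of miR-547-5p, which fell from 25.4 RPM in WKY to 15.0 in SHR and 14.8 in QDG (log2 differences -0.72 and -0.77, limma adjusted p = 0.000326 and 0.00027). miR-201-5p (70.4, 51.1 and 50.6 RPM) and miR-3585-5p (14.2, 10.3 and 9.77 RPM) were also lower in both groups of the SHR strain. No difference between the cluster and the rest of X was tested.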

How the data were processed

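Per the labels' protocols, total RNA from frozen heart was made into small RNA libraries with the NEBNext kit. FastQC, TopHat2 and limma appear in the submitters' processing notes without versions or roles, with the genome build, the annotation and the treatment of reads that fit several miRNAs not given in the sources used here. The deposited values, per the file headers normalized read counts, were handled as a signal. In each library they are whole multiples of 1 step (10782 of 10782 values within 0.01 of a whole read), and they sum to more than 1000000 because the authors' divisor is below the reads over all miRNAs.

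limma (3.58.1, R 4.3.3) was fitted to log2(RPM + 1) of all 18 libraries with a trend and robust moderation and no covariate, on the 410 of 599 miRNAs that reached 1 RPM in at least 6 libraries, with Benjamini-Hochberg adjustment over the 410 and a threshold of 0.05. The pseudocount of 1 understates changes of scarce strands. Alternatives used other pseudocounts, filters and scalings, edgeR (4.0.16), DESeq2 (1.42.0) and limma-voom on the recovered reads, a replicate block, and libraries left out.

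The members, lists and tests were chosen with earlier results of these data known. Named besides the 10 members are miRNAs with a member's seed, the 5 most similar in profile with and without group means, and the 3 largest calls on X. Counts on X without miR-450b were added after the data were seen. Sequences were matched by name for 543 of 599 rows and 10 of 10 members. Intervals cover spread between libraries, and reads without molecular identifiers are not independent molecules. The floor for 0 reads is 3 reads.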

Additional observations from a re-analysis of the deposited data

Results flagged for a closer look

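Of 45 sets of 6 libraries tested for a single library far from the rest (the 10 members and the 5 arm shares in each of the 3 groups), 2 had one, and chance gives about 1 in 20. miR-351-5p in QDG replicate 2 was 191.5 RPM, with the nearest QDG library at 244 RPM and the highest at 259 RPM. Without that library the log2 difference between QDG and SHR was 0.07. miR-450a-5p in QDG replicate 4 was 997 RPM, with the nearest at 1295 RPM and the highest at 1395 RPM. Without it the log2 difference between QDG and WKY moved from -0.28 to -0.21 (limma adjusted p = 0.128).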

How the results depend on the processing

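In QDG against WKY 4 members were called, 2 with no filter, 2 under upper quartile scaling, and 2 to 6 when each library was left out in turn. In SHR against WKY 3 were called and 2 to 4 under the 32 alternatives, and in QDG against SHR 0 under all 32. For QDG against SHR, values near 0 changed sign: miR-351-5p was 0.007068 under upper quartile scaling and 0.004837 without WKY replicate 1 and SHR replicate 5 together, where miR-542-3p was 0.01857. With single libraries left out the log2 difference ran from -0.03075 to 0.06662 for miR-351-5p, -0.08913 to 0.07469 for miR-450a-3p, -0.1386 to 0.0622 for miR-542-5p, -0.06397 to 0.01857 for miR-542-3p, -0.04339 to 0.01086 for miR-322-3p and -0.1036 to 0.05345 for miR-503-3p. For QDG against WKY miR-542-3p was 0.02568 under upper quartile scaling, and miR-542-5p ran from -0.04445 to 0.1452. The cause was not tested.

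The libraries share replicate numbers across groups and nothing ties the numbers to a pair: the deviations of same-numbered libraries had r of -0.174 to 0.232, over 0.1 in 7 of 18 pairs. With a replicate block, 5 members were called in QDG against WKY (miR-322-5p added, -0.288, limma adjusted p = 0.0344), 3 in SHR against WKY and 0 in QDG against SHR. Higher calls in QDG against WKY made up 41.1% with the authors' scaling, 51.2% with RLE and 66.3% with upper quartile factors.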
